A study of Mus musculus with 764 samples.

Results

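A set of 9 glycosyltransferases that build the sugar chains at the T cell surface was followed in single IL-10-producing CD4+ T cells. They were St6gal1, Gcnt1, Gcnt2, St3gal1, St3gal4, St3gal6, B4galt1, Fut8 and Mgat5, 9 of the 23997 gene rows of the count tables, and each had its own row. They were selected on measured values, since the large ratios of St6gal1 and Gcnt2 between the tissues were known when the list was drawn up, so every value below that compares the tissues is a description and carries no test. The cells were IL-10+ CD4+ T cells from the small intestine (SI) or the spleen, sorted by eGFP from mice that carry reporters for IL-10 (eGFP) and for Foxp3 (mRFP). All mice had received anti-CD3 antibody, and no untreated group was analysed here. Foxp3+ cells were part of the sort.

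Single cells in wells were sequenced with SMART-seq2, a full-length mRNA protocol without molecular identifiers. There were 764 cells, 190 of them from SI. Of the SI cells 19 were removed as shallow and 34 as called outside G1 of the cell cycle, and of the spleen cells 400 were kept by the same filters. By their wells the kept spleen cells fell into 3 sets, plate p1 columns 1-12 (33.2% of the 400), p1 columns 13-24 (36.2%) and plate p2 (30.5%). The SI cells shared plate p2 with the p2 spleen set. The labels name no animal, so each tissue counts as 1 sample, cells are not replicates of it, and animal and tissue cannot be told apart. Intervals are exact 95% binomial (shares) or Poisson (reads) intervals. They cover counting error at most and no variation between animals. PCR copies of 1 molecule are counted separately, so intervals on reads are too narrow even for counting error.

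Kept cells held 162801 to 622997 reads, with set medians from 315920 to 366140. Cd3e and Cd4, which define CD4+ T cells, had a read in 100% of kept cells in both tissues. Il10 had a read in 99.3% of SI cells but in 89% of spleen cells. The B cell gene Ms4a1 was at 0 in SI, and so was the myeloid gene Lyz2. The 12 B cell, myeloid and epithelial markers ranged from 0 to 19.7 CPM (reads scaled to 1000000 per cell) in SI. The highest there was the B cell gene Cd79b, with a read in 8.76% of SI cells and 3.75% of spleen cells. In the spleen sets the markers ranged from 0 to 58.1 CPM, where the highest was Epcam in p1 columns 1-12. The mean of Il10 was 806.6 CPM in p2, against 1947 and 1921 CPM in the p1 sets. The spleen sets differed in make-up. Cells with 10 or more Foxp3 reads made up 54.1% of p1 columns 1-12, 13.1% of p1 columns 13-24 and 4.10% of p2, against 3.65% of SI, so member values are given for each set.

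Surface glycans are built in the Golgi by enzymes that act in sequence. Mgat5 adds a branch to N-glycans, B4galt1 adds galactose to make N-acetyllactosamine, Fut8 adds the core fucose, and sialyltransferases close the chain with sialic acid. Gcnt1 branches O-glycans to the core 2 form, on which selectin ligands of the carrier PSGL-1 are assembled, and Gcnt2 branches linear N-acetyllactosamine chains. In T cells these structures set how selectins and galectins bind, which bears on homing, survival and the threshold of receptor signalling.

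The sequences upstream of annotated transcription starts are shown for the 3 members on which most of the results turn. They are the 250 bases before 1 RefSeq start each (mouse build GRCm38.p6), on the strand of the gene. Of the 9 members, 8 had RefSeq starts, with 3 each for St6gal1, Gcnt1 and Gcnt2. St3gal1 was not matched. Capitals mark CTTTGA, the core bound by TCF/LEF factors, or GGTGTG, a T-box half-site, on either strand.
St6gal1 chr16:23225771-23226020 (+): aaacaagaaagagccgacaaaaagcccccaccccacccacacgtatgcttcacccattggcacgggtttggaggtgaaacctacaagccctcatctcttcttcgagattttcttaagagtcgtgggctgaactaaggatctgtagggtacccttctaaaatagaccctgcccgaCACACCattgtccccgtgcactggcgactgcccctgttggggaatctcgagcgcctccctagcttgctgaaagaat
Gcnt2 chr13:40886508-40886757 (+): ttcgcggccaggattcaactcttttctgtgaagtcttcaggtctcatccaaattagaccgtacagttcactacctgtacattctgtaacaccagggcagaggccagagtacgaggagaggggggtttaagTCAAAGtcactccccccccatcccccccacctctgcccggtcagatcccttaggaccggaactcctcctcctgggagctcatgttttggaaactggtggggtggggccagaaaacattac
Gcnt1 chr19:17372845-17373094 (-): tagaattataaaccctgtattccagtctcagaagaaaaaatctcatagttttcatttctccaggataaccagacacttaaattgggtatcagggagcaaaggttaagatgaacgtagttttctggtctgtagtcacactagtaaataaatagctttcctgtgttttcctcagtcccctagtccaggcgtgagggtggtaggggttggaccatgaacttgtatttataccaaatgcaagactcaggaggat
The St6gal1 window holds 1 T-box half-site, in its reverse complement, and its other 2 starts hold none. The Gcnt2 window holds 1 TCF/LEF core, also in reverse complement, and its other 2 starts hold none. None of the 3 Gcnt1 starts holds either motif, and the window shown has TATAAA or its complement 2 times, as found on both strands. Over all 32851 RefSeq starts, 13.8% hold the TCF/LEF core, 16.3% the half-site and 12.4% TATAAA in the same window, so a match is a description of letters and not a site. The TCF/LEF core was in 4 of the 18 member starts, the half-site in 1, TATAAA in 1, AP-1 letters (TGANTCA) in 1, Blimp-1 letters (GAAAGT) in 0 and KLF letters (CACCC) in 14, where 6.75%, 12.3% and 52% of all starts held the last 3 in that order. Reads were counted per gene, so which start was used cannot be read from these data.

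St6gal1, which caps N-glycan galactose with sialic acid, was found mostly in the spleen. Its mean was 2.29 CPM in SI, against 223.6 CPM in p1 columns 1-12, 281.5 CPM in p1 columns 13-24 and 359.8 CPM in p2. The spread over cells was wide, with SDs of 18.5, 323.6, 429.9 and 505.9 CPM. At least 10 reads were found in 1.46% of SI cells (interval 0.177% to 5.17%) and in 57.9%, 56.6% and 65.6% of the cells of the spleen sets, and the SI interval did not reach any of the others. Thinned to 200000 reads a cell, the shares were 1.52%, 51.6%, 50.4% and 64.3%. On the log2(CPM + 1) scale SI was lower by -6.45 against all spleen cells, and by -6.09, -6.42 and -6.78 against each set, the last within plate p2. The median gene stood at -0.21 on this scale, so St6gal1 was at -6.24 relative to it. Spleen cells with the gene held a median of 329.5 to 387.8 CPM, and the highest reached 2517 CPM.

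The SI reads came from few cells. In SI 5 cells had any St6gal1 read, with 54, 46, 2, 1 and 1 reads. The top 2 thus held 96.2% of all SI reads of the gene. None of the 5 cells had a Ccr7 read. The first had 4 Gzmb reads and the second 1084, so the pair differed in granzyme B, a cytotoxic protease.

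Gcnt2 had the opposite pattern. Its mean was 170 CPM in SI, 0 in p1 columns 1-12, 2.85 CPM in p1 columns 13-24 and 4.26 CPM in p2. At least 10 reads were found in 31.4% of SI cells (interval 23.7% to 39.9%), in 1 cell of each of the latter sets (0.69% and 0.82%) and in 0 cells of p1 columns 1-12 (interval up to 2.74%). Thinned shares were 31.1% in SI and at most 0.893% in a spleen set. The log2 ratio was 5.68 against all spleen cells and 5.02 within plate p2.

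Gcnt2 was present in some SI cells and undetected in most. The 43 SI cells with 10 or more reads had a median of 413.2 CPM, and 9 further cells had 1 to 9 reads. In the spleen 6 of 400 cells had a read. Only 2 of them held more than 1 read, a cell of p1 columns 13-24 at 413.5 CPM and a cell of p2 at 505.5 CPM, near the median of the SI cells with the gene. The former had 582 Gzmb reads and no Ccr7 read, and the latter had 2 Gzmb and 66 Ccr7 reads.

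**Figure D1:**
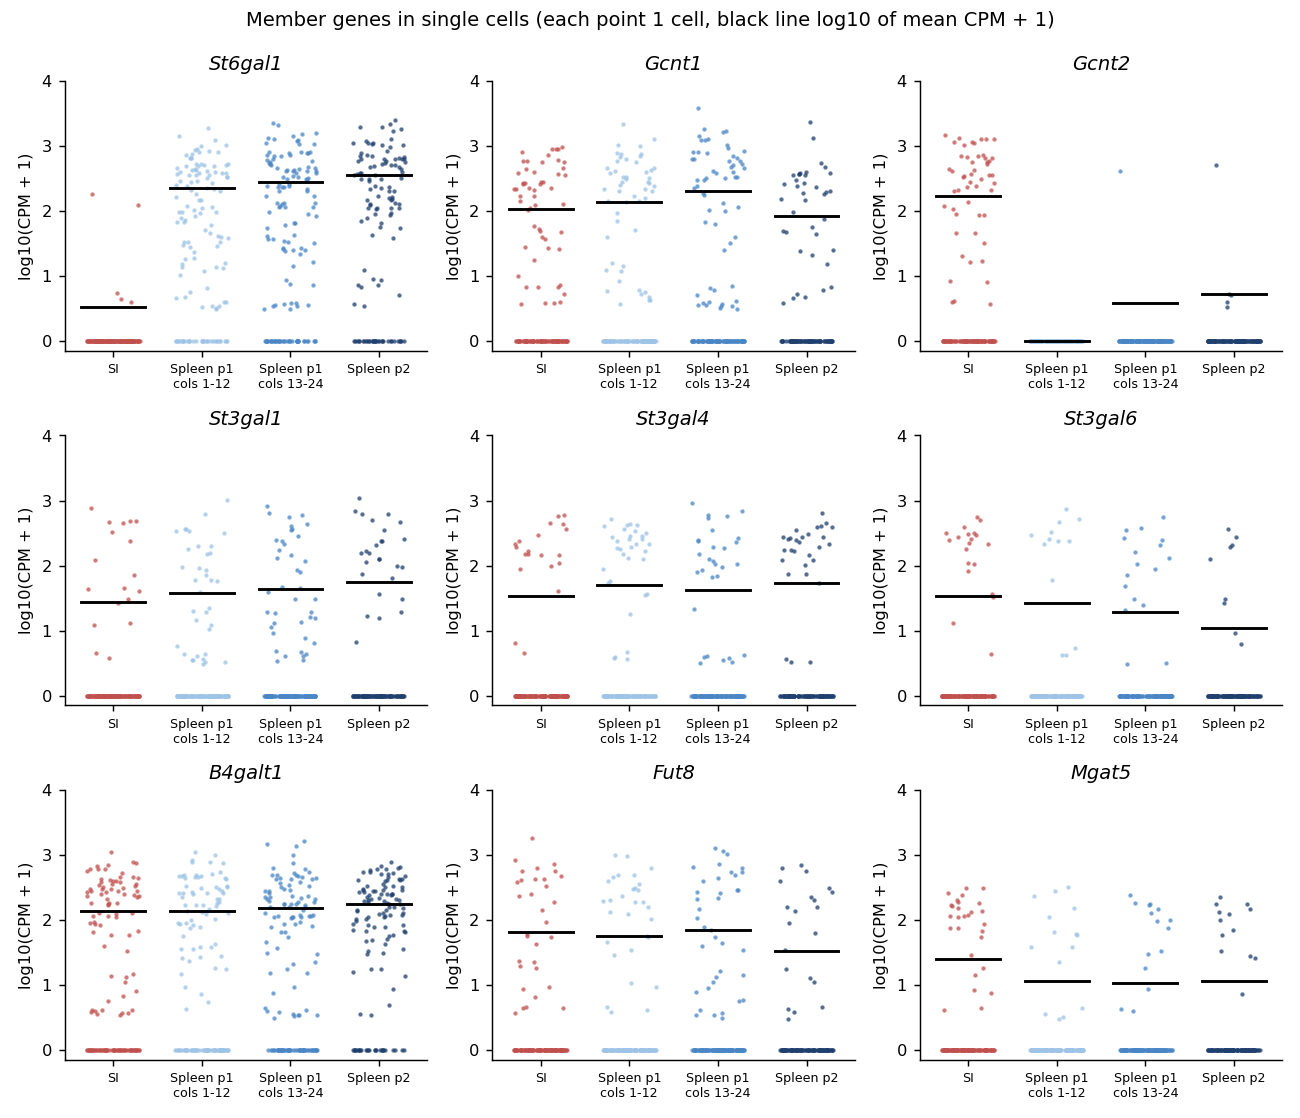
Log10(CPM + 1) of each member (y axis) in each kept cell (points, spread sideways at random) of the small intestine and the 3 spleen sets (x axis), with a black line at the mean CPM. St6gal1 points above 0 are 5 in SI, and Gcnt2 points above 0 are 6 over all spleen sets, while the other members have cells above 0 in every set.

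Gcnt1, the core 2 branching enzyme, was found in a like share of cells in both tissues. The mean was 106.4 CPM in SI, 135.7 CPM in p1 columns 1-12, 205.02 CPM in p1 columns 13-24 and 83.3 CPM in p2. At least 10 reads were found in 30.7% of SI cells (interval 23.1% to 39.1%) and in 30.1%, 31.03% and 24.6% of the cells of the spleen sets, and all 4 intervals overlapped. The log2 ratio changed sign with the set used, at -0.35 and -0.94 against the p1 sets and 0.35 within plate p2. The highest spleen set was over 2-fold the lowest (1.29 on the log2 scale), and in p2 the top 2 cells held 37.6% of the reads.

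Among the other sialyltransferases, St3gal1, which caps O-glycans, had means of 26.4 CPM in SI and 36.9, 42.9 and 53.9 CPM in the spleen sets. St3gal4, which acts on N-acetyllactosamine ends, had 32.5 CPM in SI and 50.02, 41.7 and 52.3 CPM in the spleen sets. Both were lower in SI against each set, with log2 ratios of -0.72 and -0.54 against all spleen cells and of -0.52 and -0.34 relative to the median gene. Their shares of cells with 10 or more reads were 9.49% and 13.1% in SI and 16.2% and 18.8% over the spleen, and the intervals overlapped for both genes. St3gal6, whose product takes part in selectin ligands, went the other way, with 32.6 CPM in SI and 25.3, 18.5 and 10.1 CPM in the spleen sets. Its share was 12.4% in SI (7.4% to 19.1%) and 7.5% in the spleen (5.12% to 10.5%), and these intervals overlap. Within plate p2 its log2 ratio was 1.596, against 0.35 for p1 columns 1-12.

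B4galt1, the galactosyltransferase, was the member found in most SI cells. Its mean was 138.3 CPM in SI and 136.5, 151.8 and 177.9 CPM in the spleen sets, a log2 ratio of -0.16, which is 0.05 relative to the median gene and also 0.05 under TMM scaling, where the sign turns. At least 10 reads were found in 43.8% of SI cells and in 45.1% and 48.3% of the p1 cells, but in 71.3% of p2 cells (interval 62.4% to 79.1%), above the intervals of the other 3 sets. The p2 cells with the gene had the lowest median, 200.1 CPM against 275.2 CPM in SI. Thinned shares were 66.1% in p2 and 40.6% to 45.3% in the other sets.

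Fut8, which adds core fucose, had means of 64.4 CPM in SI and 56.1, 69.9 and 32.7 CPM in the spleen sets. Its share was 15.3% in SI and 16% over the spleen. The log2 ratio was 0.20, -0.12 and 0.96 against the sets, so its size and sign depended on the set. Mgat5, the branching enzyme whose products bind galectins, had 24.3 CPM in SI and 10.4, 9.70 and 10.6 CPM in the spleen sets, log2 ratios of 1.15, 1.24 and 1.13. At least 10 reads were found in 16.1% of SI cells (interval 10.3% to 23.3%), against 7.5% in the spleen (interval 5.12% to 10.5%), so the intervals just met. Mgat5 cells of SI held a median of 134.4 CPM, against 109.2 to 126.96 CPM in the spleen sets, so the tissues were further apart in the share of cells with the gene than in its level in them.

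Gene length bears on reads, so levels between members were compared per kilobase of the joined exons. In the spleen St6gal1 stood highest at 58.2 CPM per kb, followed by B4galt1 at 36.5, Gcnt1 at 25.1 and St3gal4 at 16.3, and Gcnt2 stood last at 0.331. The order of Gcnt1 and St3gal4 turned in p2, at 14.5 and 17.9 CPM per kb. In SI the order began with B4galt1 at 32.7 CPM per kb, Gcnt2 at 24.1, Gcnt1 at 18.5 and St3gal4 at 11.1, and St6gal1 stood last at 0.467. Between neighbours in the middle, such as St3gal6 (5.28) and St3gal1 (3.86) in SI, the SDs over cells were larger than the means.

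By the rule that SI differ at least 2-fold from each of the 3 spleen sets, Gcnt2 and Mgat5 were higher and St6gal1 was lower, 2 and 1 of 9 members. Of 8362 genes with a mean of at least 10 CPM, 4.83% were higher and 9.72% lower by the same rule. Since the members were selected on this contrast, nothing is read from their count. The highest spleen set was at least 2-fold the lowest for 4 members, Gcnt1, Gcnt2, St3gal6 and Fut8, and for 18.7% of all 8362 genes. Fut8 was not among them without the cell cycle filter, with all cells or on summed reads, and with a pseudocount of 10 CPM Gcnt1 alone was left. Under TMM scaling the share of all called genes that were higher in SI went from 33.2% to 47.9%, and the same 3 members were called.

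**Figure D2:**
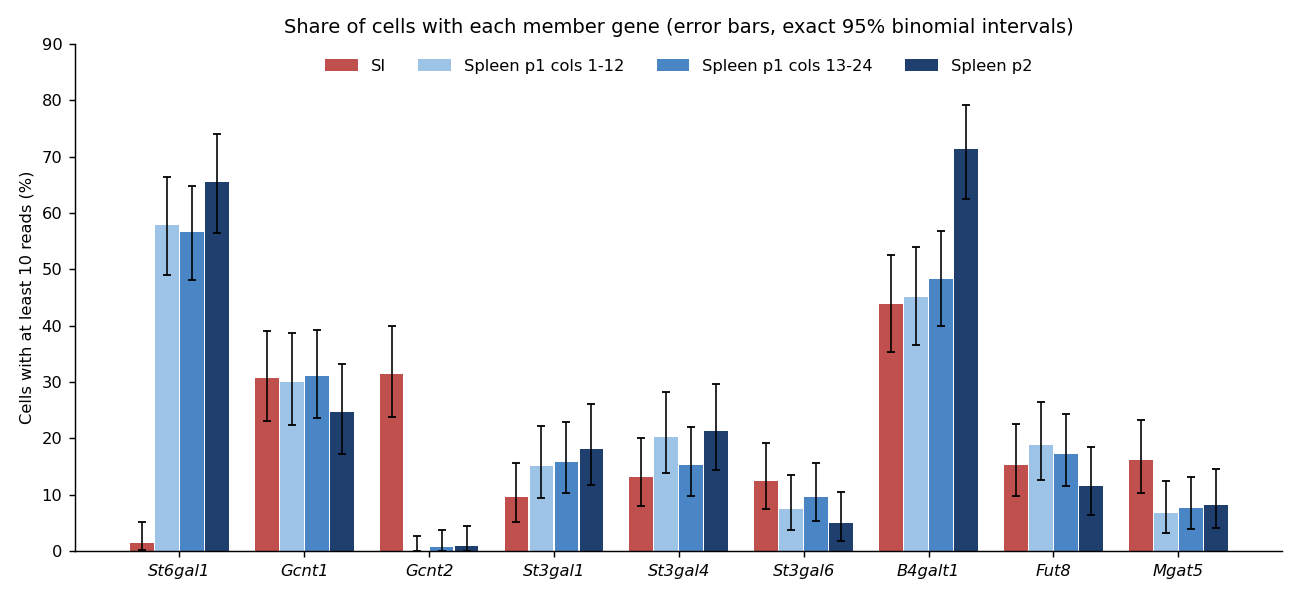
Percent of kept cells with 10 or more reads of each member (y axis) for the small intestine and the 3 spleen sets (bars), with exact 95% binomial intervals as error bars. St6gal1 is at 1.46% in SI against 56.6% to 65.6% in the spleen sets, Gcnt2 is at 31.4% against 0% to 0.82%, and B4galt1 in p2 (71.3%) lies above the other sets.

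A cell carried few of the 9 enzymes at 10 or more reads. The mean number was 1.74 (SD 1.09) in SI and 2.02, 2.02 and 2.26 in the spleen sets (SD 1.09 to 1.15). Cells with none made up 10.2% of SI, and 7.52%, 6.897% and 4.10% of the spleen sets. Rank correlations between members differed among the spleen sets. Over the pairs measured in every spleen set, the mean Spearman rho within the sets (400 cells) ran from -0.11 to 0.11, but single sets went further, with St6gal1 and Gcnt1 at -0.16, 0.29 and 0.02 in the 3 sets and St6gal1 and St3gal4 at -0.26 in p2. Over the SI cells the widest were St3gal1 with Fut8 at 0.30 and St3gal6 with B4galt1 at -0.22. These are rank correlations in sparse counts within 1 library set, given as a description.

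Whether St6gal1 goes with Ccr7, the chemokine receptor of lymph node homing, was examined in the spleen, since no SI cell had 10 Ccr7 reads (interval up to 2.66%). Of 93 spleen cells with 10 or more Ccr7 reads, 62 also had St6gal1 (66.7%, interval 56.1% to 76.1%), against 57.7% of the other spleen cells (interval 51.9% to 63.2%), and the intervals overlapped. The shares were 63.6% and 57.4% in p1 columns 1-12, 57.9% and 56.3% in p1 columns 13-24, and 69.8% and 61.02% in p2. Their Spearman rho was 0.10, -0.03 and 0.07 in the sets, and Ccr7 ranked 806 of the 5343 genes compared by likeness to St6gal1. St6gal1 was thus also in more than 56% of spleen cells without Ccr7.

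Gcnt1 was more frequent with Gzmb, encoding granzyme B, in each spleen set. The partner genes Gzmb and Ccr7 were chosen with earlier results of these data known. Their shares and intervals are therefore descriptions of cells, which are not replicates. Of the 400 spleen cells 33.5% had 10 or more Gzmb reads, and 62 of those (46.3%, interval 37.6% to 55.1%) and 53 of the rest (19.9%, interval 15.3% to 25.2%) had Gcnt1. The shares were 47.2% and 18.8% in p1 columns 1-12, 44.9% and 23.96% in p1 columns 13-24, and 46.9% and 16.7% in p2. The intervals were apart in p1 columns 1-12 and in p2 and overlapped in p1 columns 13-24. Cells with Gzmb were little deeper, with a median of 367267 reads against 348596 reads, and thinned shares were 43.2% and 19.8%. Gzmb ranked 28 of 5343 genes by likeness to Gcnt1, with a mean rho of 0.25 within the spleen sets. In SI, where 89.8% of cells had 10 or more Gzmb reads, Gcnt1 was in 32.5% of them (interval 24.4% to 41.6%) and in 2 of the 14 others (14.3%, interval 1.78% to 42.8%), which overlap.

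The same gene was scarce in Ccr7 cells. Gcnt1 had 10 or more reads in 8 of 93 spleen cells with Ccr7 (8.602%, interval 3.79% to 16.2%) and in 34.9% of the other spleen cells (interval 29.5% to 40.5%). The share was lower with Ccr7 in each set, at 9.09% against 31.97%, 5.26% against 34.9%, and 9.52% against 40.7%, and the intervals were apart in p1 columns 13-24 and p2. Spleen cells with Cxcr6, a chemokine receptor of tissue T cells, had Gcnt1 more often, in 44.7% (interval 36.9% to 52.7%) against 17.99% (interval 13.3% to 23.5%). By set the shares were 42.6% against 21.5% in p1 columns 1-12, 40% against 22.7% in p1 columns 13-24 and 56.8% against 10.6% in p2, and the intervals were apart in p2 but overlapped in both p1 sets.

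St6gal1 leaned the other way in Gzmb cells. It was in 50% of spleen cells with Gzmb (interval 41.2% to 58.8%) and in 64.7% of the rest (interval 58.6% to 70.4%), which overlap slightly. The difference was mostly that of p2, at 40.6% against 74.4%, while the p1 sets gave 52.8% against 61.2% and 53.1% against 58.3%. St6gal1 and Gcnt1 showed no fixed relation. St6gal1 was in 45% of Gcnt1 cells and 63.4% of the rest in p1 columns 1-12, in 71.1% and 50% in p1 columns 13-24, and in 63.3% and 66.3% in p2.

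No relation of Gcnt2 to Gzmb was seen in SI, but the cells with few Gzmb reads were too few to settle it. Gcnt2 was in 31.7% of the SI cells with 10 or more Gzmb reads (interval 23.6% to 40.7%) and in 4 of the 14 others (28.6%, interval 8.39% to 58.1%), with a Spearman rho of -0.07 over the SI cells. In the spleen only 1 cell with Gzmb (0.746%) had 10 or more Gcnt2 reads. Gcnt1 was in 34.9% of SI cells with Gcnt2 and in 28.7% of those without, so its share was similar with and without Gcnt2 at this number of cells.

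**Figure D3:**
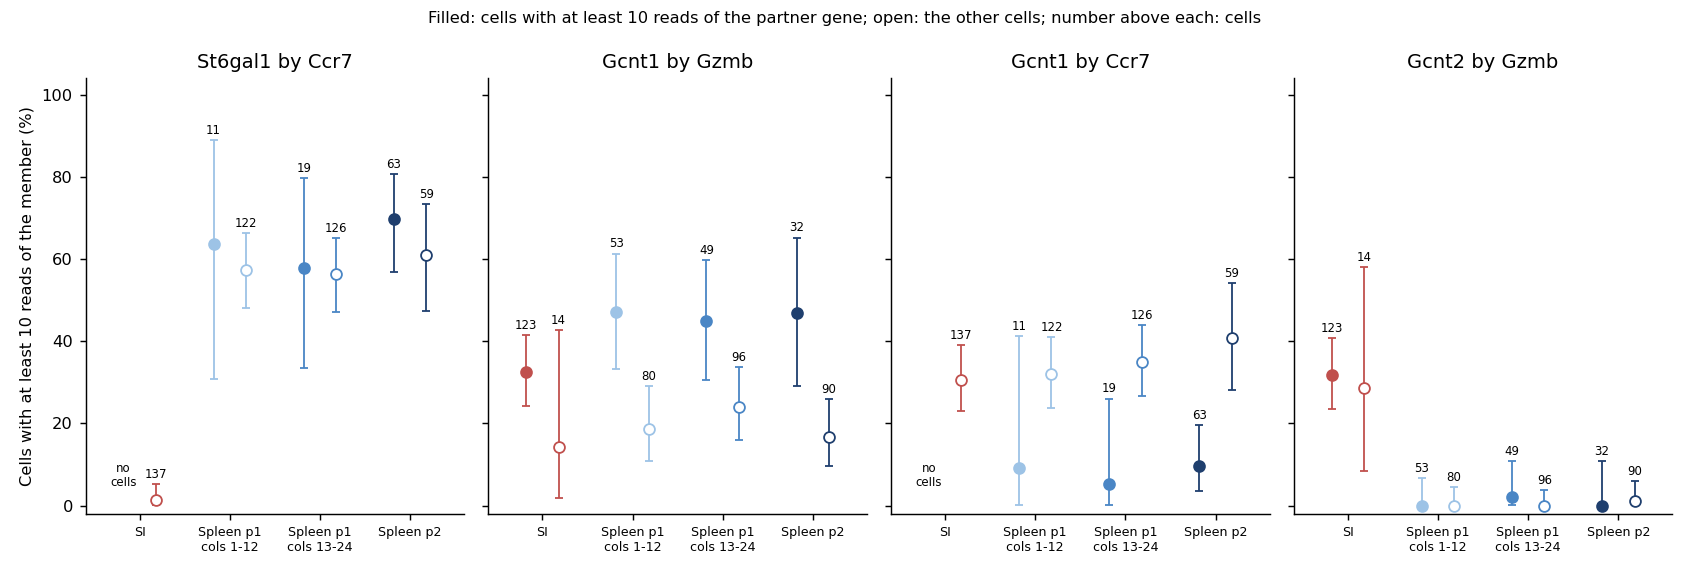
Percent of cells with 10 or more reads of a member (y axis) among cells with (filled) and without (open) 10 or more reads of a partner gene, for each set, with exact 95% binomial intervals and the number of cells above each point. Gcnt1 is more frequent with Gzmb and less frequent with Ccr7 in each spleen set, and the St6gal1 intervals with and without Ccr7 overlap in each spleen set.

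**Figure D4:**
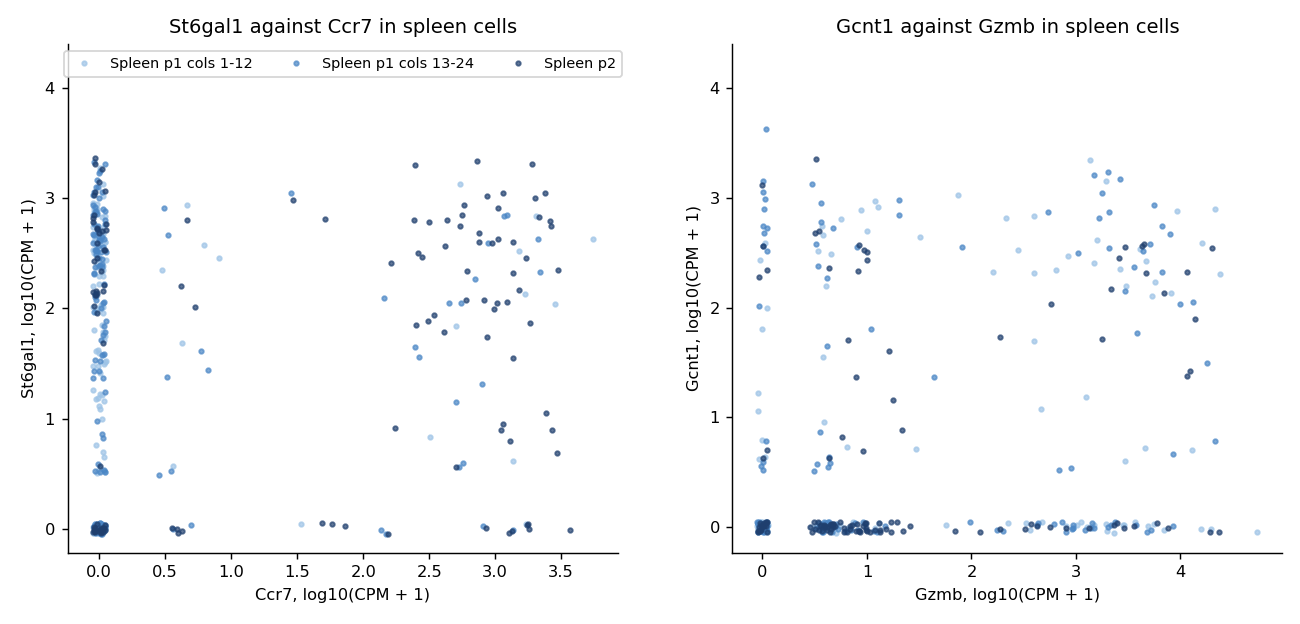
St6gal1 against Ccr7 (left) and Gcnt1 against Gzmb (right) as log10(CPM + 1) in the 400 kept spleen cells, coloured by set, with a small random shift so that cells at 0 can be seen. High St6gal1 is found with and without Ccr7 (rho of -0.03 to 0.10 within the sets), and cells with both Gcnt1 and Gzmb lie in the upper right of the other panel (rho of 0.18 to 0.33).

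The genes whose pattern over cells was most like that of a member were sought among those with a read in at least 25% of cells. In the spleen (400 cells, mean of the rho within the sets), St6gal1 was nearest to Dgka (0.26), Btg1 (0.25), Slamf6 (0.24), Prkd2 (0.23) and Add3 (0.21), and lowest with Gorasp2 (-0.27). Dgka encodes a diacylglycerol kinase and Slamf6 a surface receptor of lymphocytes. Gcnt1 was nearest to the costimulatory receptor Icos (0.38), S100a6 (0.32), Nkg7 (0.31), Tnfrsf1b (0.31) and the co-inhibitory receptor Tigit (0.30), and lowest with the ribosomal protein genes Rps20 (-0.34), Rps26 (-0.34) and Rpl32 (-0.34). In SI Gcnt1 was again nearest to Nkg7 (0.38), a cytotoxic granule gene, followed by Yeats4 (0.31), Cd3g (0.31), Plek (0.28) and Zfp219 (0.27). Gcnt2 was nearest to Emb (0.42), followed by Prr13 (0.35), Eif1 (0.34), S100a10 (0.29) and Serinc3 (0.29).

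For the other members the nearest genes reached 0.25 at most in the spleen, Fam219b (0.24) for St3gal1 and Mlec (0.25) for St3gal4. The nearest to St3gal6, B4galt1, Fut8 and Mgat5 were Ehd3 (0.20), Cndp2 (0.20), S100a4 (0.21) and Ampd2 (0.20). In SI Mgat5 was nearest to Tmem176b (0.38) and Tmem176a (0.37), and St3gal6 was nearest to Cd8a (0.33). St3gal6 had 10 or more reads in 8 of 27 SI cells with Cd8a (29.6%, interval 13.8% to 50.2%) and in 9 of 110 without (8.18%, interval 3.81% to 14.96%), and in 20.7% of cells with Itga1, encoding an integrin chain of resident T cells, against 6.33% of the rest. Both pairs of intervals overlapped. Cd8a was picked as the nearest gene in these same cells, so a higher St3gal6 share with it was built in.

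Over all spleen cells Foxp3 divided the members little. St6gal1 was in 53.1% of cells with Foxp3 and 61.8% of those without, and Gcnt1 in 25% and 29.9%, with overlapping intervals for each of the 9 members. Set and Foxp3 were mixed here, since 72 of the 96 Foxp3 cells were from p1 columns 1-12. In that set Gcnt1 was in 22.2% of cells with Foxp3 and 39.3% of those without. The shares were 36.8% and 30.2% in p1 columns 13-24, and 20% and 24.8% in p2. The Gcnt1 intervals overlapped in each set. Without the Foxp3 cells, an alternative added after the data were seen, the log2 ratios of St6gal1, Gcnt2 and Mgat5 were -6.48, 5.33 and 1.22. The Gcnt1 share in spleen Gzmb cells was then 52.3%. The removed cells outside G1 held St6gal1 in 0 of 34 in SI (interval up to 10.3%) and in 53.2%, 56.4% and 56.1% in the spleen sets. Gcnt2 was in 41.2% of the 34 SI cells outside G1 (interval 24.6% to 59.3%), but its mean there was 59.2 CPM against 169.9 CPM in G1. Fut8 was in 38.6% of p2 cells outside G1 against 11.5% in G1, with intervals that were apart. Among all members and sets it was the only such case, and it was picked for that. The Fut8 shares were 28.2% and 17.2% in p1 columns 13-24 and 17.02% and 18.8% in p1 columns 1-12, with overlapping intervals.

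Of 77 other glycan synthesis genes, 47 passed the level of 10 CPM. Of these, 6 were at least 2-fold higher in SI than in each spleen set and 3 lower, 12.8% and 6.38% beside the 4.83% and 9.72% over all genes. Their median log2 ratio was -0.14, against -0.21 over all genes. The list was drawn up with earlier results of these data known. The higher genes were B4galt4, B4galt7, St6galnac2, St6galnac3, St8sia4 and Slc35a3, and the lower ones B3gnt2, C1galt1 and Chst2. Several calls depended on the settings. B4galt4, St6galnac2, St8sia4, B3gnt2 and Chst2 were called in each setting other than a pseudocount of 10 CPM. Of these, B4galt4 had a read in only 7.3% of SI cells and 2.75% of spleen cells, so its means rest on few cells. No setting left out the cells of highest CPM for the pathway genes. St6galnac3 was lost without Foxp3 cells, without the cell cycle filter and on summed reads. Slc35a3 was lost without the cell cycle filter, with all cells and on summed reads, and B4galt7 with all cells. At a pseudocount of 10 CPM, St6galnac2, B3gnt2 and Chst2 were the genes left.

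Other sialyltransferases held 3 of the 6 higher genes among 6 tested. St6galnac2, which puts sialic acid on O-glycans, had 70.8 CPM in SI and 0.0862, 2.75 and 0 CPM in the spleen sets, a log2 ratio of 5.15, and a read in 28.5% against 1.5% of cells. St8sia4, a polysialyltransferase, had 78.6 CPM against 15.3, 29.5 and 35.9 CPM (1.52), and St6galnac3 had 87.6 CPM against 41.6, 40.5 and 17.7 CPM (1.34). In the opposite direction St6galnac4 had 44.7 CPM against 80.1, 92.4 and 116.2 CPM (-1.08), short of 2-fold against 1 set.

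Of 5 tested genes of the B4galt and B3gnt families other than B4galt1, 2 were called higher and 1 lower, with a median log2 ratio of 0.67. They were grouped by family, and not all of them extend N-acetyllactosamine chains. The galactosyltransferase genes B4galt4, with 27.6 CPM in SI against 4.33, 9.9 and 3.92 CPM (1.99), and B4galt7, with 38.7 CPM against 8.32, 16.4 and 9.69 CPM (1.65), were the higher ones, and B4galt3 was at 0.67 without a call. B3gnt2, the enzyme that extends N-acetyllactosamine chains on which Gcnt2 acts, had 58.6 CPM in SI and from 160.1 to 181.6 CPM in the spleen sets (-1.55). B4galt5 had 17.3 CPM against 31.1, 40.6 and 47.5 CPM (-1.15). Of the O-glycan initiation and core genes, 10 were tested, and only C1galt1, which makes the core 1 acceptor of Gcnt1, was called, at 6.11 CPM against 15.9, 14.5 and 16.4 CPM (-1.22). That call was lost without the cell cycle filter, with all cells, at a pseudocount of 10 CPM and under TMM or DESeq2 scaling. C1galt1 had a read in only 8.76% of SI cells and 12.25% of spleen cells. No N-glycan trimming gene was called among 8 tested, though Mgat1, which starts complex N-glycans, had 41.4 CPM against 53.6, 110 and 99.8 CPM (-1.07).

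Among 15 tested genes of sugar supply, sialidases and sulfation, Chst2, a sulfotransferase that acts on selectin ligands, had 16.9 CPM against 64.9, 127.97 and 94.5 CPM (-2.45). Slc35a3, a Golgi nucleotide sugar carrier, had 47.6 CPM against 14.7, 22.2 and 11.9 CPM (1.47). Neu3, a membrane sialidase, had 65.6 CPM against 33.2, 44.8 and 30.9 CPM (0.82). Gne and Cmas, needed to make and activate sialic acid, had log2 ratios of 0.07 and 0.19, within the range of the spleen sets for Cmas.

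**Figure D5:**
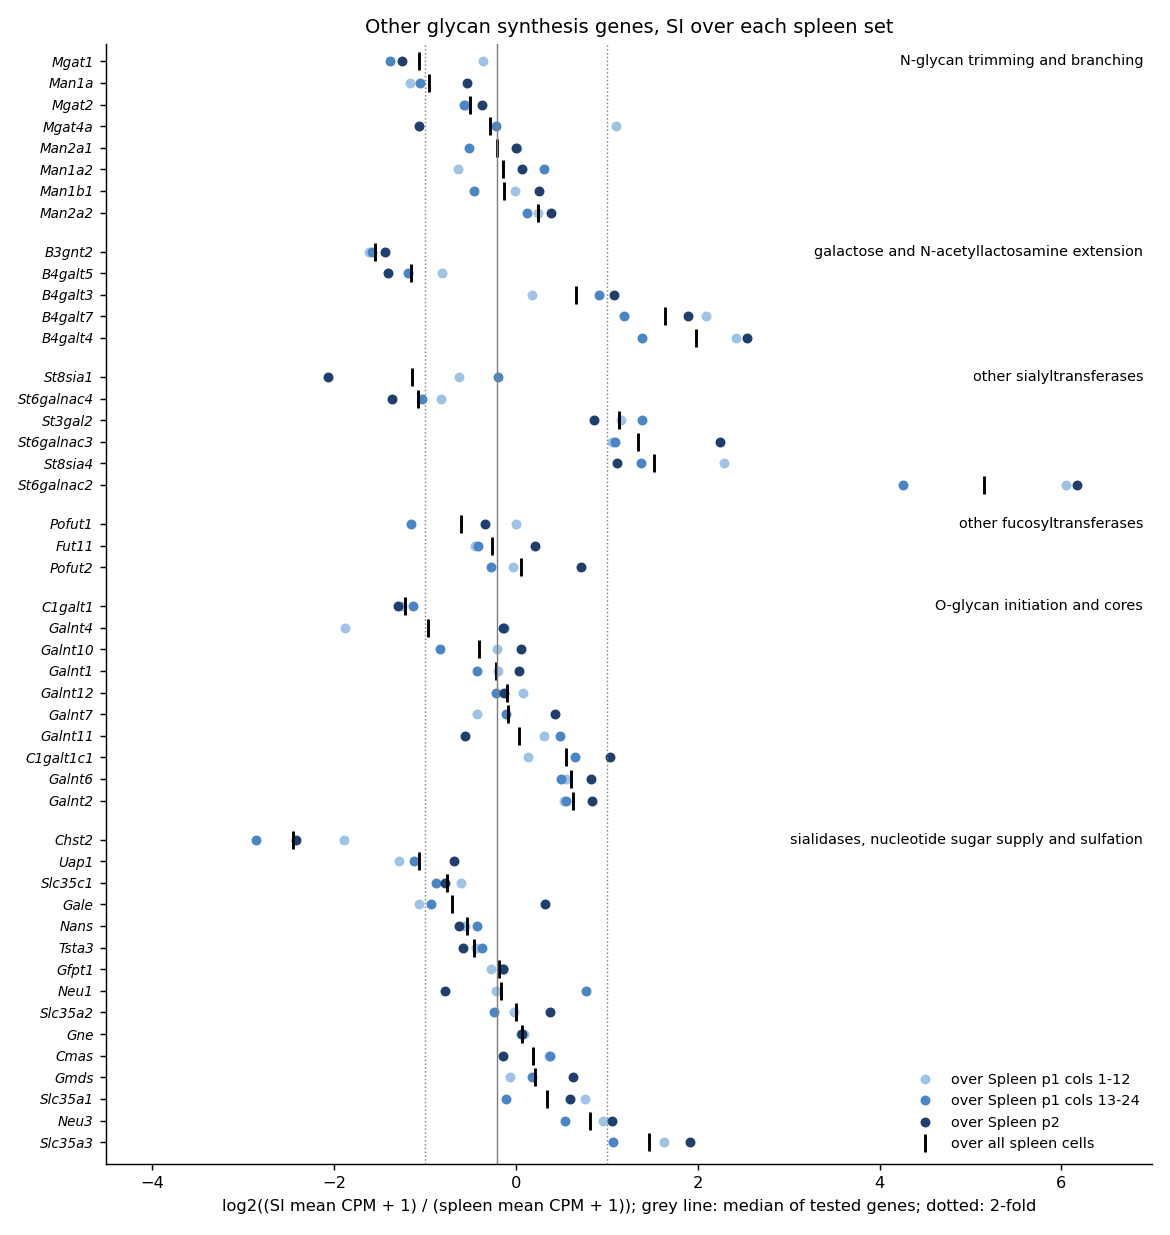
Log2 of (SI mean CPM + 1) over (spleen mean CPM + 1) (x axis) for the 47 tested glycan synthesis genes other than the 9 members, grouped by role (y axis), with points for each spleen set, black bars for all spleen cells, a grey line at the median gene (-0.21) and dotted lines at 2-fold. St6galnac2 at 5.15 stands farthest to the right and Chst2 at -2.45 farthest to the left.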

How the data were processed

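Single-cell SMART-seq2 libraries of IL-10+ CD4+ T cells were analysed from 2 count tables. Per the labels and the study's methods, the authors demultiplexed paired reads and aligned them with STAR, and deposited raw read counts per gene; the submitters' processing notes name mm10 and the methods another mouse build, the counting tool and annotation are not given in the sources used here, and the counts carry no coordinates. The reporter row was left out. Cells more than 3 median absolute deviations below the tissue median in reads or genes, or not called G1 by cyclone (scran 1.30.0), were removed. Counts were scaled to CPM (1000000 reads per cell), and means, shares with at least 10 reads and log2 ratios with a pseudocount of 1 CPM were computed in Python 3.11.15 for the small intestine and 3 spleen well sets. With 1 sample a tissue no test was run. Genes with a mean of the 2 tissue means of at least 10 CPM were ranked as tested, and a call needed 2-fold against each of the 3 sets. The ratio and likeness steps were tested on simulated data. No 2 cells had identical counts. Lengths came from GENCODE M21 exons and upstream sequences from RefSeq (GRCm38.p6).

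The members, gene lists, motifs and alternatives were chosen with earlier results of these data known. Named genes were the 9 members, Ccr7 and Gzmb, up to 5 pathway genes each way by log2 ratio with a read in at least 25% of cells of the higher tissue and one sign against each set, the 5 (St6gal1, Gcnt1, Gcnt2) or 2 nearest genes by Spearman rho, and the carriers, lectins and motif factors, of which 1 is not reported here. Genes named outside this rule (called pathway genes, Gne, Cmas, and cell markers) were chosen after their values were seen. Scaling was repeated with edgeR 4.0.16 (TMM) and DESeq2 1.42.0 factors.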

Additional observations from a re-analysis of the deposited data

How the results depend on the processing

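The 2 members called higher in the small intestine and the 1 called lower were the same genes without the cell cycle filter, with all cells, with a pseudocount of 0.1 CPM, under TMM scaling, DESeq2 size factors or summed reads, with no filter on low genes and without Foxp3 cells (added after the data were seen). With a pseudocount of 10 CPM, 1 member (Gcnt2) was called higher, 1 (Gcnt1) differed between spleen sets and 1 pathway gene (St6galnac2) was higher. The spleen set means of Mgat5 were 9.70 to 10.6 CPM, near this pseudocount, while those of Fut8 were 32.7 to 69.9 CPM. With no filter on low genes 9 pathway genes were higher and 7 lower, because St3gal3, Fut1 and Gcnt3, and B3gnt3, B3gnt5, St3gal5 and St6galnac6, then entered. Under TMM, DESeq2 factors or summed reads St3gal2 was also called higher, and without the cell cycle filter Uap1 was also called lower. The St6gal1 share in Ccr7 cells was 80.3% when 1 read sufficed, beside 73% of all spleen cells at that cutoff. The Gcnt2 share in spleen Gzmb cells was 0% in p1 columns 1-12 and in p2, as 1 cell made up the count. Of the member log2 ratios, 5 of 9 moved by more than the SD over the spleen sets with p2 spleen alone, where Gcnt1 turned to 0.35, and 3 of 9 under TMM, where B4galt1 turned to 0.05. Without the 2 cells of highest CPM in each set St6gal1 was at -7.91 and Gcnt2 at 7.22. The cells left out included those with 96.2% of the SI reads of St6gal1 and 98.6% of the spleen reads of Gcnt2. Wider ratios thus followed from the choice of cells. No paired analysis was possible because each sample is 1 cell and no test was run. Precision is limited by the number of cells with a gene and by 1 sample a tissue.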

Other observations

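Carriers and lectins that meet these glycans were described by name and belong to no comparison above. Selplg, encoding the selectin ligand carrier PSGL-1, had 1190 CPM in SI and 734, 606 and 644 CPM in the spleen sets, a log2 ratio of 0.85. The mucin-like carrier Spn was at -0.45, the phosphatase Ptprc at -0.28 and the hyaluronan receptor Cd44 at 0.25. Galectin genes, whose products read galactose on these chains, had log2 ratios of -0.65 for Lgals1, -0.68 for Lgals3, 0.45 for Lgals8 and -0.27 for Lgals9, and the Lgals3 and Lgals9 ratios changed sign with the spleen set.

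Factors known to bind the searched letters had their own levels. Tcf7 had 2.27 CPM in SI and 207.8, 216.2 and 759.8 CPM in the spleen sets (-6.86), and Lef1 had 14.5 CPM against 76.8, 72.8 and 177.6 CPM (-2.79). Klf2 had 4.42 CPM against 61.97, 83.04 and 169.3 CPM (-4.25). Tbx21, encoding T-bet, was at -0.89, Prdm1, encoding Blimp-1, at 0.53 and Batf, of the AP-1 family, at 0.44. Whether any of them acts on a member gene was not tested.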
